A study of Mus musculus with 3 samples.

Results

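RNA from activated mouse B cells exposed to JQ1+ was compared with RNA from the same kind of culture exposed to flavopiridol, with the vehicle library left out of the ratio. The difference of a gene was log2((RPKM JQ1+ + 1)/(RPKM flavopiridol + 1)), where RPKM is a read count scaled to the length of the gene and the size of the library. Genes averaging 1 RPKM or more over the 3 libraries were kept, which were 14790 of 33605 distinct gene symbols. The cells were C57BL/6 splenic B cells negative for CD43, cultured for 3 days with lipopolysaccharide (LPS) and interleukin-4 (IL4), and every group shares that stimulation. They were treated with 80 nM JQ1+, with 30 nM flavopiridol or with DMSO, the vehicle. The labels give neither the number of mice nor whether the cultures shared them. Each group is 1 library, so the comparison gives sizes only: it has no replicate check, no test and no p-value. The drugs differ in dose as well as in kind, so a difference between the libraries belongs to these 2 doses.

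BET proteins, such as Brd2 and Brd3, bind acetylated histones at promoters and enhancers and help recruit the transcription machinery there. JQ1 occupies their bromodomains and displaces them, and genes under strong enhancers, Myc among them in many lymphoid cells, are known to be sensitive to it. Flavopiridol blocks several cyclin-dependent kinases, including Cdk9. Cdk9 with cyclin T forms P-TEFb, the kinase that releases paused RNA polymerase II, and the 7SK RNA with Hexim1 holds P-TEFb inactive. In B cells, LPS and IL4 drive growth, division and switching of the antibody heavy chain towards IgG1 and IgE.

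Far more genes were lower than higher in JQ1+ relative to flavopiridol. At least 2-fold lower were 1016 genes (6.87% of those measured), and at least 2-fold higher were 304 (2.06%), together 1320 genes (8.92%). Of the lower genes 722 were protein-coding and 111 were at least 4-fold lower. Of the higher genes 84 were protein-coding and 36 were at least 4-fold higher. The median difference of all genes was -0.215 on the log2 scale, and list medians are therefore also given relative to it. Calls counted in a gene list are to be read beside the all-gene shares of 6.87% lower and 2.06% higher. Each library's RPKM values are relative to the size of that library, and the split of the calls depended on that scale: lower genes made up 77.0% of the calls as deposited, 57.3% (633 lower or 4.28% of genes, 471 higher or 3.18%) after rescaling by the median of ratios, and 54.8% (608 lower, 501 higher) after scaling by the trimmed mean of M values (TMM). Immunoglobulin genes took 2.54% of the counts in DMSO, 4.29% in JQ1+ and 1.69% in flavopiridol. Their part in the shift was not tested beyond a rescaling to counts outside these genes, which gave a median of -0.08, where rescaling to the sum of all deposited counts gave -0.12. The deposited counts summed to 51247080 in JQ1+ and 50184508 in flavopiridol, and the totals behind the RPKM were 18846560 and 17162771, so the libraries are further apart by the second measure than by the first.

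DMSO, although outside the ratio, shows on which side each gene lay. Among the 1016 lower genes the DMSO level fell between the drugs for 700, above both for 202 and below both for 103. For the 304 higher genes these counts were 223, 43 and 33, and for all 14790 genes 6454, 3868 and 4446. Of the lower genes 377 were at least 2-fold under DMSO in JQ1+ and 257 were at least 2-fold over DMSO in flavopiridol, against 5.29% and 3.55% of all measured genes. Of the higher genes 96 were at least 2-fold over DMSO in JQ1+ and 95 at least 2-fold under it in flavopiridol, against 1.98% and 2.88% of all. These counts reuse the libraries that chose the genes and only place the third library among them.

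**Figure D1:**
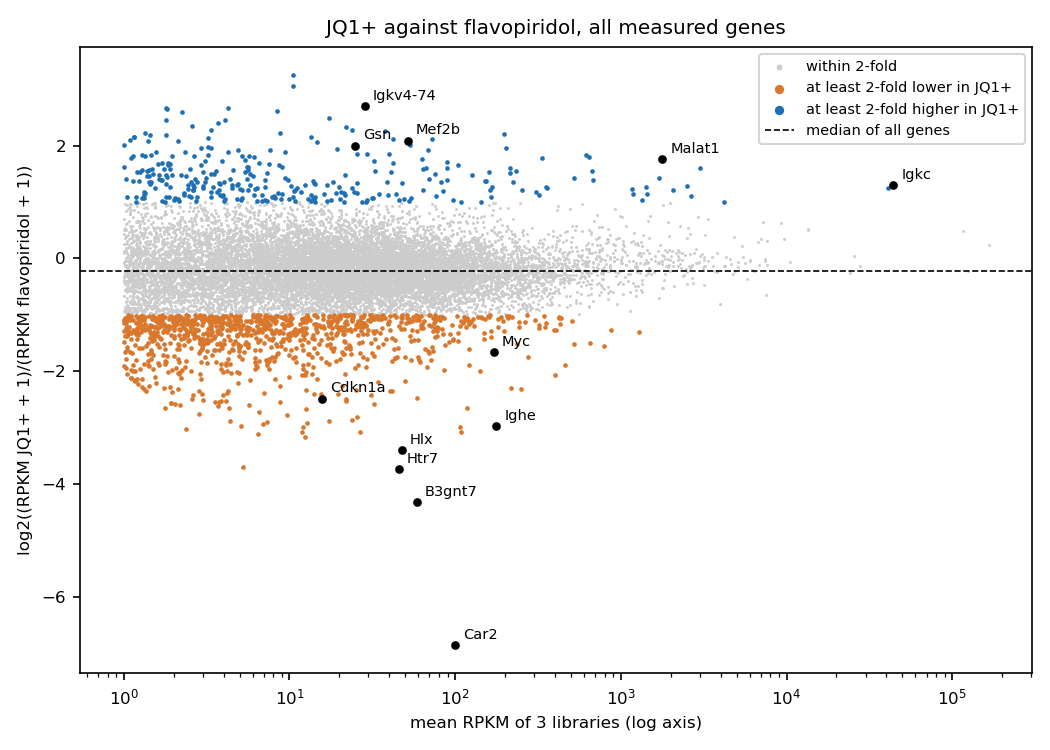
Each point is 1 of the 14790 measured genes; the horizontal axis is the mean RPKM of the 3 libraries (log axis) and the vertical axis the log2 difference of JQ1+ over flavopiridol. The 1016 orange genes lie at or below -1 and the 304 blue ones at or above 1; the dashed line is the median of all genes, -0.215, and Car2 stands alone at -6.86.

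The genes furthest lower in JQ1+ included several immune signalling genes. The CD30 receptor and its ligand, the OX40 ligand, interleukin-6, a serotonin receptor and the homeobox factor Hlx stood among the 15 furthest named genes. The CD30 ligand and the OX40 ligand reached the mean of 5 RPKM needed for naming only through flavopiridol, where they are high. Their place among the 15 therefore adds no support. The promoter of B3gnt7, which is the second furthest, is shown because it holds the CACGTG E-box bound by MYC family dimers. The 250 bases before its RefSeq start (GRCm38.p6, chr1:86302971-86303220, plus strand) read 5′ to 3′ as follows, with the E-box in capitals.
B3gnt7: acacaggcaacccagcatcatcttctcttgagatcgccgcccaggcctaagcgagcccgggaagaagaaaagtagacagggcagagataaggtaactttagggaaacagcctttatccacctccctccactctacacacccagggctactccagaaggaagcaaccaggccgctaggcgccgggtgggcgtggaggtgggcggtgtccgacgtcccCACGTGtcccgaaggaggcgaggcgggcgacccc

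Carbonic anhydrase 2 (Car2), which hydrates carbon dioxide, was at 8.68 RPKM in DMSO, 1.5 in JQ1+ and 289 in flavopiridol. JQ1+ was thus 193-fold under flavopiridol on the RPKM scale (121 to 323, 95% interval for counting error only), and the vehicle lay between them and much nearer to JQ1+. B3gnt7, a glycosyltransferase that extends N-acetyllactosamine chains, was at 58.8 RPKM in DMSO, 4.64 in JQ1+ and 112 in flavopiridol, 24.1-fold lower in JQ1+ (19.3 to 30.6). Here the JQ1+ library is the low one and flavopiridol lies above the vehicle.

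Htr7, a serotonin receptor coupled to G proteins, was at 74.0 RPKM in DMSO, 3.54 in JQ1+ and 59.3 in flavopiridol. Hlx, a homeobox transcription factor, was at 65.2, 5.87 and 71.4 RPKM in the same order. Dok2, an adaptor that dampens tyrosine kinase signalling, was at 20.2, 0.896 and 16.0 RPKM. In these 3 genes the flavopiridol library was close to the vehicle and JQ1+ stood far below both, by 16.8-fold, 12.2-fold and 17.9-fold against flavopiridol. Plcd1, a phospholipase C, followed the same order with 17.7, 1.64 and 19.0 RPKM, as did Chst10, a sulfotransferase, with 20.8, 2.97 and 28.2 RPKM. Nme4, a mitochondrial nucleoside diphosphate kinase, was at 12.7, 1.87 and 21.9 RPKM.

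Other genes of this group were below the vehicle in both drug libraries, and more so in JQ1+. Il6, a cytokine made by activated B cells, was at 47.8 RPKM in DMSO, 2.56 in JQ1+ and 29.2 in flavopiridol. Tmem176b, a membrane channel protein, was at 201, 12.3 and 111 RPKM. Cox6a2, the muscle-type form of a cytochrome oxidase subunit, was at 58.3, 0.806 and 12.1 RPKM, 15.1-fold lower in JQ1+ with a wide counting interval of 4.82 to 50.3.

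**Figure D2:**
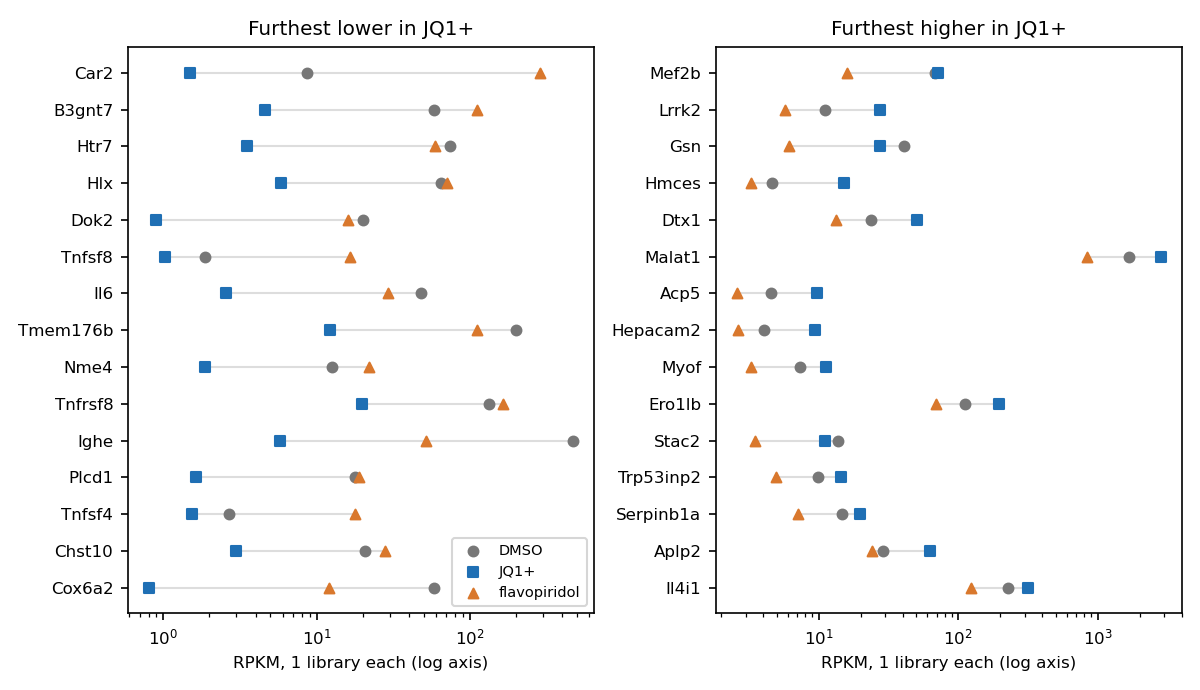
Levels in RPKM (log axis, 1 library each) of the 15 named genes furthest lower in JQ1+ (left) and the 15 furthest higher (right); circles are DMSO, squares JQ1+ and triangles flavopiridol. On the left every square is the lowest of the 3 symbols, with Car2 spanning 1.5 to 289 RPKM; on the right every triangle is the lowest.

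The genes furthest higher in JQ1+ were fewer and less far apart. Mef2b, a transcription factor of germinal centre B cells, was at 68.2 RPKM in DMSO, 71.0 in JQ1+ and 15.9 in flavopiridol, 4.46-fold higher in JQ1+ (3.68 to 5.41). The low library is flavopiridol, and JQ1+ and the vehicle lie side by side. The Mef2b promoter is shown because it holds the octamer ATGCAAAT, the site of the factors Oct1 and Oct2 (GRCm38.p6, chr8:70152511-70152760, plus strand, 250 bases before the RefSeq start, octamer in capitals).
Mef2b: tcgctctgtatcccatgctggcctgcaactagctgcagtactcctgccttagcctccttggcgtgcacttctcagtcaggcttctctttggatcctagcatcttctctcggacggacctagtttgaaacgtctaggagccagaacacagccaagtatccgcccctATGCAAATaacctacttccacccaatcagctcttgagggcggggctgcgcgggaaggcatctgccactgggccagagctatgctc

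Lrrk2, a large kinase, was at 11.0 RPKM in DMSO, 27.4 in JQ1+ and 5.75 in flavopiridol, 4.77-fold higher in JQ1+. Gsn encodes gelsolin, which severs actin filaments, and was at 40.8, 27.4 and 6.10 RPKM in the same order. Hmces, which shields abasic DNA sites and takes part in class switching, was at 4.65, 15.1 and 3.26 RPKM. The vehicle lay between the drugs for Lrrk2 and Hmces and above both for Gsn. Dtx1, a ubiquitin ligase of the Notch pathway, was at 23.5, 50.8 and 13.3 RPKM, and Ero1lb, an oxidase that drives disulfide formation in the endoplasmic reticulum, at 112, 197 and 69.8 RPKM. Il4i1, an amino acid oxidase named for its induction by interleukin-4, was at 229, 317 and 123 RPKM, 2.58-fold higher in JQ1+. The long nuclear RNA Malat1 was at 1666, 2835 and 839 RPKM, 3.38-fold higher in JQ1+ (3.34 to 3.42). The other members of the 15 (Acp5, Hepacam2, Myof, Stac2, Trp53inp2, Serpinb1a and Aplp2) were 2.64-fold to 3.72-fold higher. With a pseudocount of 5 in place of 1, Acp5, Hepacam2, Myof, Stac2 and Trp53inp2 were no longer past 2-fold; rescaling by the median of ratios shifts genes upwards in this ratio and so could not end a call on this side.

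The transcripts of the drugs' own targets differed little. Brd2 was at 143 RPKM in DMSO, 194 in JQ1+ and 172 in flavopiridol. Brd3 was at 22.3, 14.1 and 23.9 RPKM. Neither reached a 2-fold difference between the drugs; Brd3 was the lower in JQ1+, with a log2 difference of -0.72. Cdk9, the pause-release kinase, was at 35.2, 32.1 and 29.3 RPKM, and Ccnt1, its cyclin, at 43.5, 40.5 and 49.8 RPKM.

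Hexim1 and the 7SK RNA, which take part in holding P-TEFb inactive, were higher in JQ1+ than in flavopiridol without reaching 2-fold. Hexim1 was at 48.4 RPKM in DMSO, 63.0 in JQ1+ and 40.9 in flavopiridol, 1.54-fold higher (1.41 to 1.68). The 7SK RNA (Rn7sk, looked up after its values were seen) was at 126091, 129700 and 92049 RPKM, 1.41-fold higher (1.40 to 1.42). Flavopiridol was the lowest library for both. The vehicle lay between the drugs for Hexim1, nearer to flavopiridol, whereas for the 7SK RNA it lay close to JQ1+. Of the 27 measured genes of P-TEFb, 7SK and pausing only Ell3, an elongation factor found after the values were seen, passed 2-fold, with 2.29, 5.75 and 2 RPKM. The list median was -0.17. Cdk1, Cdk2, Cdk4, Cdk6 and Cdk7, other kinases of the flavopiridol class of targets, had log2 differences between -0.03 (Cdk2) and -0.56 (Cdk6).

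MYC and lists of growth genes lay on the lower side in JQ1+. Myc, a driver of growth, was at 194 RPKM in DMSO, 76.2 in JQ1+ and 243 in flavopiridol, 3.19-fold lower in JQ1+ (2.99 to 3.39). JQ1+ is below the vehicle and flavopiridol above it. In the MYC network list of 11 measured genes the other call was Mycl, named after its values were seen, at 0.282, 0.460 and 2.40 RPKM. Mycl passed the minimum mean of 1 RPKM only through flavopiridol, where it is high, so its call adds no support. Max, the dimer partner of MYC, was at 148, 93 and 139 RPKM, and Mxd4, which competes with MYC for Max, at 26.8, 53.1 and 31.1 RPKM. The list median was -0.03.

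Ribosome biogenesis was the growth list with the lowest median. Of its 59 measured genes 58 lay under the all-gene median, and the list median was -0.72 (-0.50 relative to all genes). At least 2-fold lower were 6, against 6.87% of all genes. None of the 6 remained past 2-fold after rescaling by the median of ratios. Rrp1b, a nucleolar processing factor, was at 51.5 RPKM in DMSO, 31.0 in JQ1+ and 70.1 in flavopiridol. Gar1, a core protein of the small RNPs that guide pseudouridylation, was at 30.4, 16.5 and 37.7 RPKM. Polr1b, a subunit of RNA polymerase I, was at 33.0, 23.6 and 50.6 RPKM. In all 3 the vehicle lay between the drugs. For the whole list the median was -0.32 in JQ1+ against DMSO and 0.37 in flavopiridol against DMSO, comparisons that share the vehicle library.

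Nucleotide and one-carbon synthesis also had a low median. Of 36 measured genes 34 lay under the all-gene median, with a list median of -0.69 (-0.47 relative). At least 2-fold lower were 6, against 6.87% of all genes, and none of them after rescaling by the median of ratios. Gart, a purine synthesis enzyme with 3 activities, was at 93.8 RPKM in DMSO, 76.5 in JQ1+ and 180 in flavopiridol. Shmt1 and Mthfd1, which feed one-carbon units into purines and thymidylate, were at 64.0, 55.5 and 117 RPKM and at 99.3, 81.9 and 171 RPKM. Paics, the next purine step, was at 203, 148 and 307 RPKM. Flavopiridol is the library that stands out here, with levels above both others.

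Chaperones were mostly below the all-gene median as well. Of 27 measured chaperonin and heat shock genes 25 lay under the all-gene median, and the list median was -0.59 (-0.38 relative). In JQ1+ 5 were at least 2-fold lower, against 6.87% of all genes, and 3 after rescaling by the median of ratios. Hspd1, the mitochondrial chaperonin, was at 238 RPKM in DMSO, 218 in JQ1+ and 512 in flavopiridol, 2.35-fold lower in JQ1+ (2.26 to 2.44), and Bag3, a cochaperone, was at 4.58, 2.72 and 7.92 RPKM. Hspa1a and Hspa1b, near-identical copies of inducible HSP70 whose reads cannot be assigned with certainty, were at 2.86 and 3.33 RPKM in JQ1+ and at 8.21 and 9.23 in flavopiridol. A CACGTG E-box was found in 8.73% of the matched promoters of lower genes and in 8.70% of all matched promoters. The promoters of Bag3, Hspa1a and Hspa1b held none. The Hspd1 promoter is shown because it holds one (GRCm38.p6, chr1:55088244-55088493, minus strand, 250 bases before the RefSeq start, E-box in capitals).
Hspd1: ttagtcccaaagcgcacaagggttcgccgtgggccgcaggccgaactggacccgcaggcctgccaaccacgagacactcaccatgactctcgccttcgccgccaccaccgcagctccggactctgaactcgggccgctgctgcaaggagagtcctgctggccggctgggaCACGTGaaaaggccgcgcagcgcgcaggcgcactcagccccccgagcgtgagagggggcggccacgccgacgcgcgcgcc

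Mitochondrial and cytosolic ribosomes differed from each other. Of 76 measured mitochondrial ribosomal protein genes 69 lay under the all-gene median, with a median of -0.55 (-0.34 relative) and 2 calls as deposited, 1 after rescaling. Mrpl38, of the large mitochondrial subunit, was at 44.7 RPKM in DMSO, 34.6 in JQ1+ and 85.2 in flavopiridol. The 78 cytosolic ribosomal protein genes had a median of -0.16, which is 0.06 relative to all genes, and the 2 lower calls, Rps29 and Rps19, belong to families with many pseudogene copies, so their reads are uncertain. Neither call held after rescaling. Aminoacyl-tRNA synthetases (20 measured, median -0.39), translation factors (24, -0.46), glycolysis enzymes (22, -0.45) and the proteasome (31, -0.33) had no member past 2-fold. Eif4ebp1, which restrains the cap-binding protein, was at 274, 95.8 and 182 RPKM, and Ldha, lactate dehydrogenase, at 452, 195 and 355 RPKM, so both were under the vehicle in each drug.

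Targets of p53 passed 2-fold on the lower side more often than the 6.87% of all measured genes. Of 30 measured targets 10 were at least 2-fold lower and none higher, with a median of -0.69 (-0.48 relative); after rescaling by the median of ratios 5 were lower and 1 higher. Cdkn1a, the CDK inhibitor p21, was at 14.7 RPKM in DMSO, 4.18 in JQ1+ and 28.0 in flavopiridol, 6.71-fold lower in JQ1+ (5.11 to 8.91). Phlda3, an inhibitor of Akt signalling, was at 15.8, 6.64 and 43.2 RPKM. Plk2, a stress-induced kinase, was at 16.2, 12.5 and 49.0 RPKM, and Zmat3, an RNA-binding protein, at 7.74, 4.86 and 19.1 RPKM. In each of these the vehicle lay between the drugs, and for Plk2 it was close to JQ1+. The list median against the shared DMSO library was -0.28 in JQ1+ and 0.48 in flavopiridol.

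Cell death genes of the BCL2 family included members of both functions. Of 16 measured genes 4 were at least 2-fold lower in JQ1+ and none higher, against 6.87% and 2.06% of all genes. The median was -0.56 (-0.34 relative), and 1 call held after rescaling by the median of ratios. Bcl2, which blocks death, was at 29.4 RPKM in DMSO, 15 in JQ1+ and 33.7 in flavopiridol. Bcl2a1b, also a survival gene with near-identical copies, was at 510, 242 and 543 RPKM. Bax, which permeabilises mitochondria and is also in the p53 list, was at 140, 114 and 231 RPKM. Bik, a BH3-only death gene named after its values were seen, was at 3.58, 0.900 and 3.98 RPKM and is the call that held. Mcl1, a short-lived survival protein often low under Cdk9 inhibition, was at 339, 468 and 405 RPKM, above the vehicle in both drugs and 1.15-fold higher in JQ1+.

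Genes of division showed little separation. None of 46 measured genes of G2/M and mitosis (median -0.10) and none of 45 of DNA replication (median -0.36) passed 2-fold. Cdk1 was at 73.4 RPKM in DMSO, 73.6 in JQ1+ and 80.0 in flavopiridol. Among 28 measured CDK and cyclin genes only Ccng1, a p53 target, was past 2-fold, at 280, 241 and 537 RPKM, and it fell short of 2-fold after rescaling. Cdkn1b and Cdkn2c, the inhibitors p27 and p18, were at 43.2, 55.9 and 38.5 RPKM and at 19.6, 31.6 and 26.9 RPKM. Cdkn1a was thus the only one of 6 measured CDK inhibitor genes past 2-fold. Replication-dependent histone genes (61 measured, kept in total RNA because they lack poly(A) tails) had a median of 0.15, which is 0.37 relative to all genes. Named after their values were seen, Hist1h2ba, Hist1h3d and Hist1h4a were past 2-fold on the higher side and Hist1h2bp was 2.07-fold lower; after rescaling by the median of ratios 4 were higher and none lower.

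**Figure D3:**
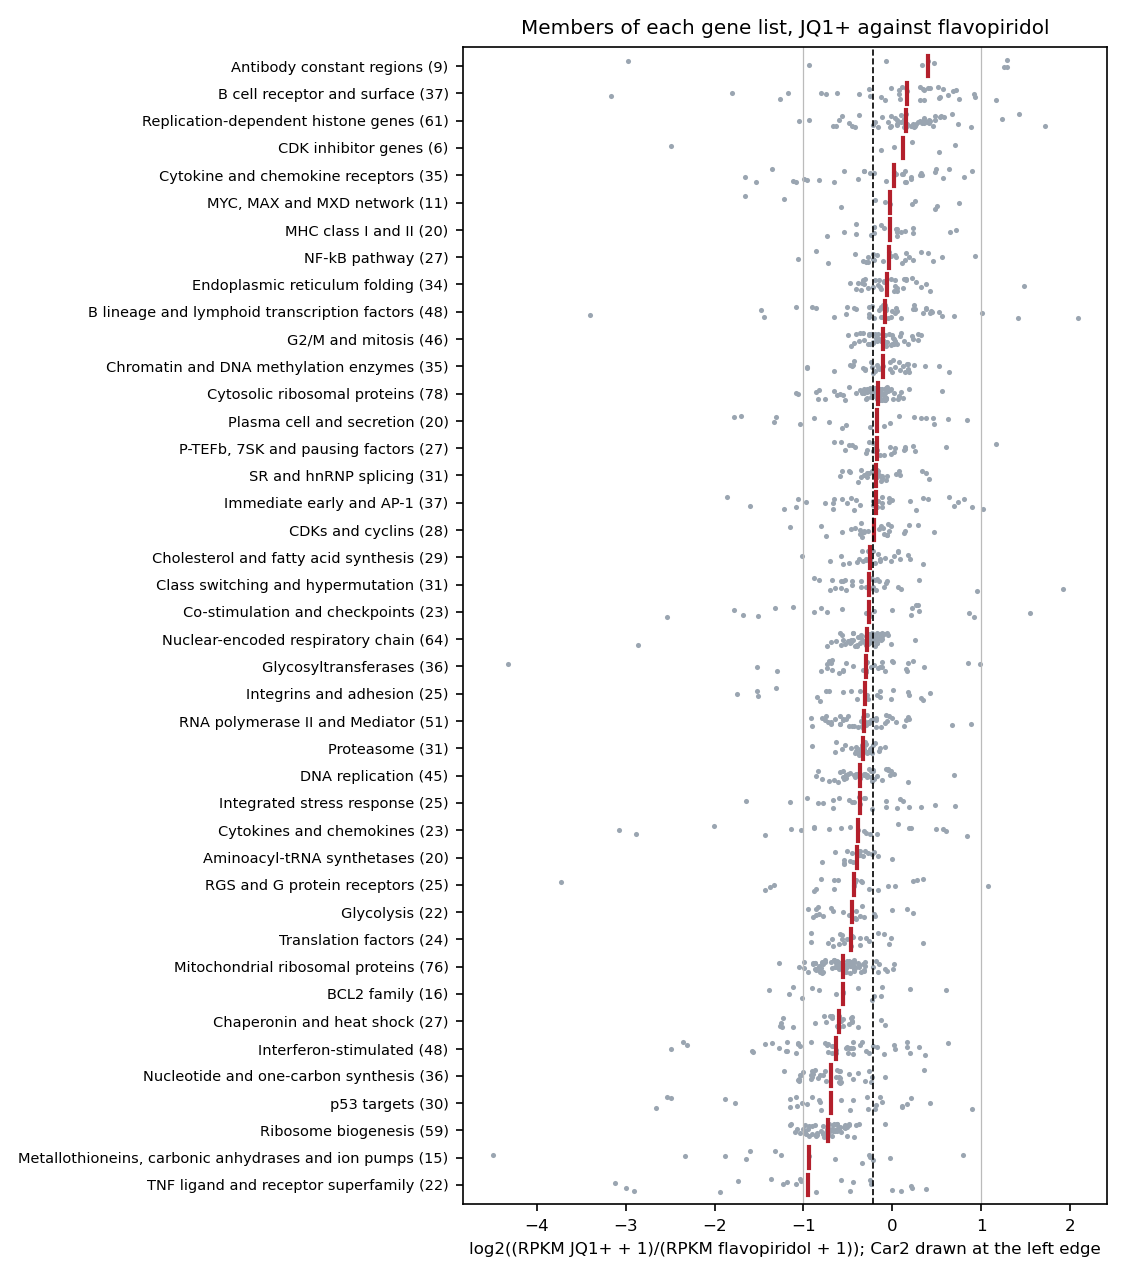
Each grey point is a measured member of a gene list placed by its log2 difference of JQ1+ over flavopiridol; the number of members is in brackets, the red bar is the list median, the dashed line the all-gene median of -0.215, and the thin lines mark 2-fold. Lists run from the TNF superfamily (median -0.94) at the bottom to antibody constant regions (0.41) at the top.

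Interferon-stimulated genes were low in both drug libraries and lower in JQ1+. Of 48 measured genes 15 were at least 2-fold lower in JQ1+ than in flavopiridol and none higher, against 6.87% and 2.06% of all genes. The median was -0.64 (-0.42 relative), and 10 remained after rescaling by the median of ratios. Against the shared DMSO library the list median was -2.33 in JQ1+ and -1.57 in flavopiridol. Gbp2, an interferon-induced GTPase of a family with similar copies, was at 360 RPKM in DMSO, 65.2 in JQ1+ and 327 in flavopiridol, 5.02-fold lower in JQ1+ (4.70 to 5.36). It stayed near its vehicle level in flavopiridol, whereas 38 of the 48 measured genes were at least 2-fold under DMSO there. Ifitm3, which blocks virus entry, was at 56.6, 0.704 and 8.55 RPKM, with a counting interval of 4.04 to 65.1 on its 12.1-fold difference. Lgals3bp, a secreted glycoprotein, was at 114, 1.22 and 10.3 RPKM, and Mx1, an antiviral GTPase, at 48.3, 0.800 and 4.39 RPKM. The Gbp2 promoter is shown for its interferon response element core (GAAA, any 2 bases, GAAA) and its AP-1 site, TGACTCA. The promoters of Ifitm3 and Lgals3bp held neither. The Gbp2 bases (GRCm38.p6, chr3:142620413-142620662, plus strand) are the 250 before the RefSeq start. Both matches, in capitals, are on the opposite strand, the AP-1 site first.
Gbp2: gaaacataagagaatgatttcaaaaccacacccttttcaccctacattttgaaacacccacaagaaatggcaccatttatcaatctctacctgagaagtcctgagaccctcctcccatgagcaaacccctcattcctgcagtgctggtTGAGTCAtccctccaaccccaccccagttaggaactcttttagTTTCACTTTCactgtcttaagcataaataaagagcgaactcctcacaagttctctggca

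The TNF ligand and receptor superfamily had the lowest median of the lists with over 15 measured members. Of 22 measured genes 11 were at least 2-fold lower in JQ1+ and none higher, against 6.87% and 2.06% of all genes. The median was -0.94 (-0.73 relative), and 8 remained after rescaling by the median of ratios. The ligand of CD30, Tnfsf8, was at 1.87 RPKM in DMSO, 1.02 in JQ1+ and 16.6 in flavopiridol, and the receptor CD30, Tnfrsf8, was at 133, 19.9 and 166 RPKM. The ligand of OX40, Tnfsf4, was at 2.68, 1.53 and 17.9 RPKM, and the ligand of 4-1BB, Tnfsf9, at 16.4, 5.09 and 19.4 RPKM. The ligands Tnfsf8 and Tnfsf4 stood far above the vehicle in flavopiridol, while CD30 stood far below it in JQ1+.

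Cytokines were lower in JQ1+ in 6 of 23 measured genes and higher in none, against 6.87% and 2.06% of all genes. The median was -0.39, and after rescaling 4 remained lower and 1 was higher. Ebi3, a subunit of interleukin-27 and interleukin-35, was at 256 RPKM in DMSO, 32.5 in JQ1+ and 133 in flavopiridol. Ccl22, a chemokine that attracts CCR4-bearing T cells, was at 72.1, 102 and 277 RPKM. Csf1, the macrophage growth factor, was at 25.3, 17.6 and 40.0 RPKM. Il6 and Ebi3 were under the vehicle in both drugs, whereas Ccl22 was above it in both. Of 35 measured cytokine and chemokine receptors 5 were at least 2-fold lower, 3 after rescaling by the median of ratios, when 2 were higher, and the list median was 0.02. Il2ra, the alpha chain of the interleukin-2 receptor, was at 21.8, 11.5 and 30.8 RPKM. Il13ra1 and Il9r, named after their values were seen, were at 0.243 and 0.633 RPKM in JQ1+ and at 2.92 and 3.74 in flavopiridol.

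Co-stimulation and checkpoint genes were lower in 6 of 23 measured members and higher in 1, or 5 and 3 after rescaling by the median of ratios. As deposited, 6.87% of all genes were lower and 2.06% higher. Havcr1 (TIM-1), a B and T cell co-stimulator, was at 6.21 RPKM in DMSO, 2.23 in JQ1+ and 17.8 in flavopiridol. Cd80, a ligand of CD28, was at 9.87, 3.22 and 12.5 RPKM, and Slamf1 at 11.9, 5.75 and 15.9 RPKM. Cd44, the hyaluronan receptor, was at 299, 106 and 305 RPKM, 2.88-fold lower in JQ1+ (2.78 to 2.97). JQ1+ was the lowest library in all 4, and for Havcr1 flavopiridol also stood far above the vehicle. The member higher in JQ1+, Lag3, named after its values were seen, was at 3.31, 6.05 and 1.41 RPKM.

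The NF-kB pathway itself was separated in 1 of 27 measured genes, Traf1, at 91.2 RPKM in DMSO, 53.1 in JQ1+ and 111 in flavopiridol, a call that ended after rescaling by the median of ratios. Nfkb1 was at 696, 436 and 794 RPKM. Immediate early and AP-1 genes were split, with 5 of 37 measured genes lower and 1 higher as deposited and 2 lower and 3 higher after rescaling. The all-gene shares as deposited were 6.87% lower and 2.06% higher. Batf3, an AP-1 family partner of IRF factors, was at 55.9, 2.98 and 11.1 RPKM, and Batf, which class switching needs, at 405, 278 and 579 RPKM. Egr3 was lower in JQ1+, at 11.2, 13.7 and 33.0 RPKM, and its relative Egr1 higher, at 23.9, 18.4 and 8.58 RPKM. Fosl2, named after its values were seen, was at 4.75, 0.897 and 5.91 RPKM.

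Antibody genes separated the drugs in both directions. Ighm, the heavy chain of IgM, was at 35234 RPKM in DMSO, 61288 in JQ1+ and 25661 in flavopiridol. The light chain constant regions Igkc and Iglc2 were both 2.45-fold higher in JQ1+ than in flavopiridol, with Iglc2 at 2037, 3880 and 1584 RPKM. Ighe, the heavy chain of IgE, went the other way, at 470, 5.76 and 52.2 RPKM. Ighg1, the heavy chain of IgG1, was at 3257, 1479 and 1116 RPKM, 1.33-fold higher in JQ1+ and below the vehicle in both. Among 9 measured constant region genes 3 were thus called higher and 1 lower, with or without rescaling.

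Variable region genes followed the light chain and IgM constant regions. Of 52 measured kappa variable genes 39 were past 2-fold on the higher side and none on the lower (median 1.39), and of 22 heavy variable genes 15 were higher and 1 lower (median 1.41). In kappa family 4, 17 of 19 genes were higher, with a median of 2.01. Igkv4-74 was at 18.5 RPKM in DMSO, 58.7 in JQ1+ and 8.14 in flavopiridol, 7.21-fold higher (4.32 to 12.3), and Ighv7-4 at 17.8, 45.4 and 8.5 RPKM. Members of a family are similar in sequence, so how reads were split among them is uncertain. Against the shared DMSO library the kappa median was 0.54 in JQ1+ and -0.84 in flavopiridol. More antibody RNA per cell and more cells of one kind cannot be told apart in bulk RNA, here or for the other lists.

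Class switching and hypermutation genes gave 1 call among 31 measured, Hmces; after rescaling H2afx, which marks DNA breaks, was also higher, at 490 RPKM in DMSO, 831 in JQ1+ and 426 in flavopiridol. Plasma cell and secretion genes were lower in 5 of 20 measured members and higher in none, against 6.87% and 2.06% of all genes. The median was -0.17, and after rescaling 4 were lower and 1 higher. Cd93, a surface protein of long-lived plasma cells, was at 38.5, 5.40 and 19.8 RPKM. Prdm1, the master factor of plasma cells, was at 26.9, 67.2 and 56.5 RPKM, above the vehicle in both drugs, and Sdc1 (CD138) at 13.4, 17.3 and 32.6 RPKM. The members past 2-fold were surface proteins (Cd93, Ly6c1, Ly6c2 and, named after their values were seen, Cd28 and Tnfrsf17) and no factor of the secretory programme.

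Lymphoid transcription factors were separated in 7 of 48 measured genes, 4 lower and 3 higher in JQ1+ (3 and 3 after rescaling), with a median of -0.08. Lower calls were thus near the all-gene share of 6.87%, and 2.06% of all genes were higher. Myb, a factor of proliferating progenitors, was at 28.1 RPKM in DMSO, 13.7 in JQ1+ and 40.0 in flavopiridol, and Satb1, a chromatin organiser, at 108, 15.8 and 44.7 RPKM. Mef2c, a relative of Mef2b that was named after its values were seen, was at 368, 174 and 369 RPKM, so the pair differed in opposite directions; the Mef2c difference was under 2-fold after rescaling. Ebf1 and Nfatc1, also named after their values were seen, were 2.72-fold and 2.06-fold higher in JQ1+. Pax5 (137, 168 and 164 RPKM), Irf4 (235, 236 and 337) and Bcl6 (10.3, 5.04 and 4.83) were within 2-fold between the drugs.

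B cell receptor and surface genes had a median of 0.17 (0.39 relative) over 37 measured genes. As deposited 1 was higher and 4 lower, against 2.06% and 6.87% of all genes, and after rescaling 3 were higher and 3 lower. Cd79a, a signalling chain of the receptor, was at 477 RPKM in DMSO, 507 in JQ1+ and 266 in flavopiridol, and its partner Cd79b at 1545, 2127 and 1908 RPKM. Lower in JQ1+ were Vpreb3, a chaperone-like light chain partner, at 85.1, 16.8 and 61.2 RPKM, Ly6d at 421, 640 and 1541 RPKM, and Fcgr2b, the inhibitory Fc receptor, at 53.9, 46.8 and 107 RPKM. Ly6d and Fcgr2b were high in flavopiridol, whereas Vpreb3 was low in JQ1+. None of 20 measured MHC class I and II genes passed 2-fold; Cd74, the invariant chain, was at 7756, 8404 and 5357 RPKM.

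**Figure D4:**
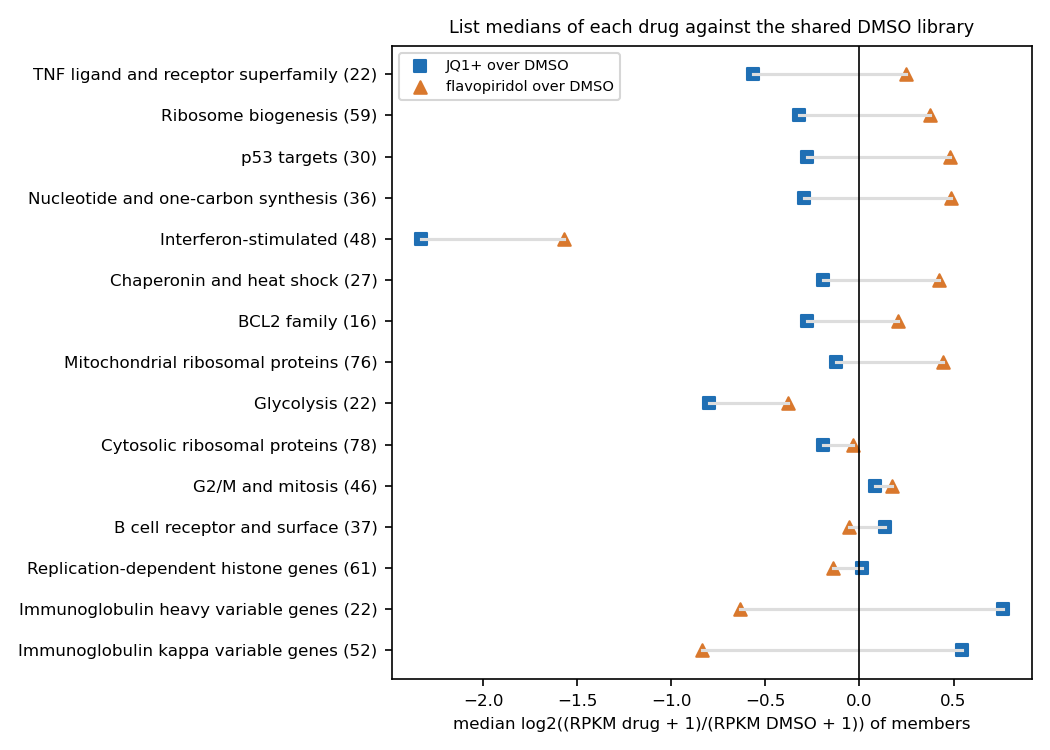
Median log2 difference of the measured members of 15 lists for JQ1+ over DMSO (squares) and flavopiridol over DMSO (triangles); both use the same DMSO library. Ribosome biogenesis lay at -0.32 and 0.37, p53 targets at -0.28 and 0.48, interferon-stimulated genes at -2.33 and -1.57, and kappa variable genes at 0.54 and -0.84.

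Metal and ion handling genes had a median of -0.93 (-0.72 relative) over 15 measured members. In JQ1+ 7 were at least 2-fold lower, against 6.87% of all genes. After rescaling 7 were lower and 1 was higher. Atp1b1, a subunit of the sodium pump, was at 2.81 RPKM in DMSO, 11.3 in JQ1+ and 61.1 in flavopiridol. Mt2, a metallothionein that binds zinc and copper, was at 1.88, 6.78 and 27.7 RPKM, and its relative Mt1, named after its values were seen, at 20.1, 43.7 and 134 RPKM. These 3 were above the vehicle in both drugs and highest in flavopiridol. Car13, another carbonic anhydrase, was at 69.2, 32.8 and 104 RPKM, and the cell surface form Car12, named after its values were seen, at 1.05, 0.222 and 2.05 RPKM.

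Regulators of G protein signalling were also split. Of 25 measured RGS and G protein receptor genes 4 were lower in JQ1+ and 1 higher, with or without rescaling. Over all measured genes 6.87% were lower and 2.06% higher as deposited. Rgs1 and Rgs2, which shorten G protein signals, were at 2.96, 4.77 and 13.9 RPKM and at 1.49, 6.56 and 19.4 RPKM in DMSO, JQ1+ and flavopiridol. Rgs10 was at 23.4, 49.2 and 22.8 RPKM. Rgs1 and Rgs2 were highest in flavopiridol, whereas Rgs10 was highest in JQ1+. Of 36 measured glycosyltransferases 3 were lower and none higher (2 higher after rescaling): B3gnt7, Fut4 (9.15, 1.35 and 5.72 RPKM), which adds fucose, and Mgat4b (7.40, 3.39 and 9.78). That count is near the all-gene share of 6.87%, and the list median was -0.08 relative to all genes. Of 25 integrin and adhesion genes 4 were lower, among them Itgb3, the beta3 integrin, at 96.8, 7.93 and 29.0 RPKM, and Ly6a (Sca-1) at 899, 171 and 495 RPKM.

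Stress and secretory pathway genes were close between the drugs. The integrated stress response gave 2 lower calls among 25 measured genes (median -0.36), Cebpb, at 26.3, 8.04 and 19.1 RPKM in DMSO, JQ1+ and flavopiridol, and Nupr1, named after its values were seen, at 9.94, 0.692 and 4.30 RPKM; Cebpb fell short after rescaling. Asns, asparagine synthetase, was at 185, 52.8 and 91.7 RPKM. The stress response calls, 2 of 25, were near the 6.87% of all measured genes that were lower. Endoplasmic reticulum folding genes gave 1 call among 34, Ero1lb, with a median of -0.06. Herpud1, which aids degradation of misfolded proteins, was at 483, 348 and 258 RPKM. Cholesterol and fatty acid synthesis gave 1 lower call among 29 measured genes, Idi1, at 153, 106 and 215 RPKM, which ended after rescaling, and apart from Cox6a2 none of 64 respiratory chain genes passed 2-fold (median -0.28).

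The general transcription and RNA machinery was not past 2-fold in any list as deposited. This covers 51 RNA polymerase II and Mediator genes (median -0.32), 31 SR and hnRNP splicing genes (-0.18) and 35 chromatin and DNA methylation genes (-0.10). Polr2a, the largest subunit of RNA polymerase II, was at 21.8 RPKM in DMSO, 35.5 in JQ1+ and 18.8 in flavopiridol, 1.89-fold higher in JQ1+ (1.74 to 2.06), and it passed 2-fold after rescaling by the median of ratios. Gtf2h3 and the Mediator subunit Med18 lay on the other side, at 22.7, 19.8 and 38 RPKM and at 18.9, 15.1 and 29.1 RPKM.

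Gene types differed in how often they passed 2-fold. Protein-coding genes were higher in 0.742% and lower in 6.38%. Of 362 measured small nucleolar RNAs, which guide the modification of ribosomal RNA and mostly lie in introns, 22 (6.08%) were higher and 79 (21.8%) lower, with a median of -0.37 (-0.16 relative, and 0.02 relative on the scale of CPM, which leaves out gene length). Among 271 microRNA genes 46 were higher and 44 lower, and among 188 small nuclear RNA genes 33 and 27. The typical (median) mean level was 12.7 RPKM for small nucleolar RNAs, 3.37 for microRNA genes and 2.91 for small nuclear RNA genes. Of all genes averaging 12.5 to 29.0 RPKM, 5.34% were lower, and of those averaging 1 to 4.07 RPKM 13.4%. The type that holds the immunoglobulin variable genes, of light and heavy chains together, was higher in 52 of 73 (71.2%).

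Protein-coding genes also differed by their architecture, taken by identifier from GENCODE M21 for 11224 of 11325 (99.1%). The median difference was -0.28 in the shortest of 5 groups by span (up to 7253 bases) and -0.12 in the longest (59932 bases and more). By exon number it was -0.29 in genes of 1 to 4 exons and -0.10 in genes of 18 or more. Among genes averaging 20 RPKM or more the ends of both series were alike, -0.24 and -0.09 by span and -0.25 and -0.10 by exon number. Long genes with many exons thus lay higher in this ratio than short ones, by a difference that is small beside 2-fold. Which end is nearer to equal depends on the scale: relative to the all-gene median, the genes averaging 20 RPKM or more were at -0.03 in the shortest and 0.12 in the longest group by span, and at -0.04 and 0.12 by exon number. Against the shared DMSO library the median of the longest group was -0.03 in JQ1+ and 0.08 in flavopiridol, and that of the shortest -0.11 and 0.17. RNA quality and the unspliced share were not measured, and their part was not tested.

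**Figure D5:**
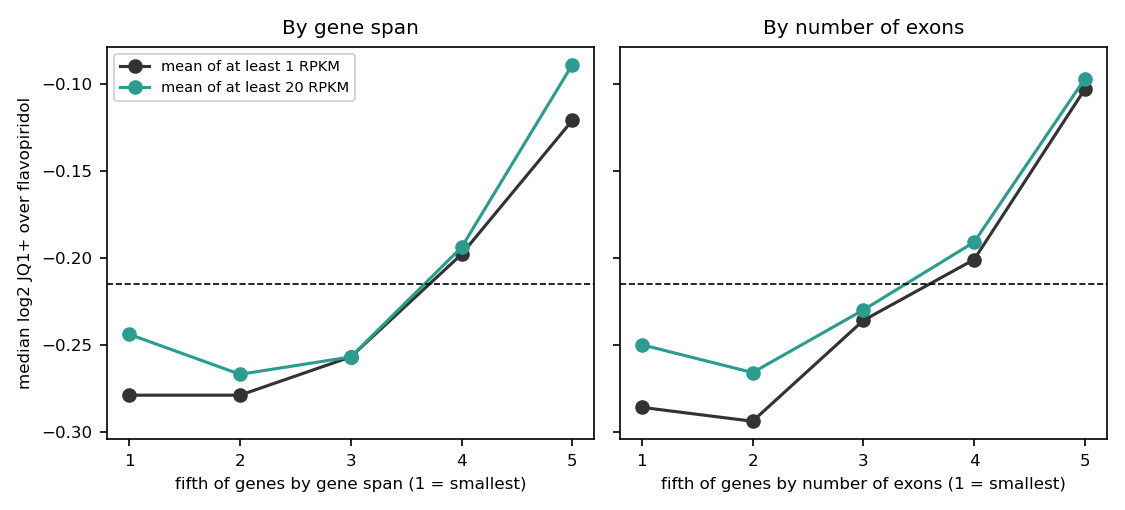
Median log2 difference of JQ1+ over flavopiridol for protein-coding genes in 5 groups by gene span (left) and by number of exons (right); dark points are genes averaging 1 RPKM or more and green ones 20 RPKM or more, and the dashed line is the all-gene median of -0.215. The last group is the highest in both panels, at -0.12 and -0.10 for the dark points.

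Promoter letters were read for the 8359 of 11325 measured protein-coding genes (73.8%) that matched the RefSeq table (GRCm38.p6) by symbol, too few for a check over the set, so the shares only describe the matched promoters. In the 250 bases before the start, on both strands, the E-box CACGTG was found in 8.70% of all these promoters, in 44 of 504 (8.73%) of the genes lower in JQ1+ and in 2 of 60 (3.33%) of those higher. TATAAA was found in 6.13% of all, 10.5% of the lower and 6.67% of the higher genes. The interferon response element core was in 2.74%, 4.96% and 5%, and the AP-1 site TGACTCA in 2.62%, 4.17% and 1.67%. The octamer ATGCAAAT was in 1.30% of all, 1.59% of the lower and 6.67% (4 of 60) of the higher genes. A match is a run of letters and not a shown binding site.

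The B cell markers were present in all libraries, with Ms4a1 (CD20) at 486 RPKM in DMSO, 1193 in JQ1+ and 829 in flavopiridol. Of 7 T cell markers all but Lck (20.5, 23.9 and 14.5 RPKM) were under 2 RPKM in every library, and the summed level of the list was 23.0, 26.4 and 17.2. Of 9 myeloid markers Ly6g, S100a8 and S100a9 were at 0 throughout, and the sums were 7.94, 7.51 and 14.1. Emr1, the F4/80 gene, was at 0.922, 0.801 and 9.47 RPKM. Lyz2 went the other way, at 0.181, 1.94 and 0.044 RPKM, and Csf1r was at 6.41, 4.03 and 3.94 RPKM. Emr1, Lyz2 and Csf1r were named after their values were seen. Of 6 dendritic cell markers Itgax, Clec9a and Siglech were at or near 0 in every library and the sums were 34.1, 7.76 and 24.1, most of them from Flt3 (26.6, 2.55 and 14.6 RPKM) and Zbtb46. The 5 cytotoxic markers summed to 3.00, 1.99 and 1.61, with Ncr1 and Gzmb at 0 throughout, and the 5 erythroid markers to 3.24, 2.12 and 3.23. The 6 stroma markers summed to 22.8, 5.69 and 12.4, nearly all from Pecam1 (21.7, 5.18 and 11.9 RPKM). Their part in the differences was not tested.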

How the data were processed

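Total RNA was measured in 1 library each of CD43-negative splenic B cells cultured with DMSO, JQ1+ or flavopiridol, and groups were taken from the treatment label. The culture label of the drug samples repeats the DMSO wording. Trizol extraction was followed by removal of ribosomal RNA with Ribo-Zero, per the labels. Each table lists 33700 genes. Per the file headers, each gene has a raw count. The authors also deposited an RPKM per gene, scaled to gene length and library size. The build is mm9 in the submitters' processing notes. No aligner, counting program or strand setting is given in the sources used here.

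Genes with several rows (94 symbols) were taken by the row with the highest mean. The log2 difference of RPKM used a pseudocount of 1, which understates differences of low genes, and a difference of at least 1 in size (2-fold) was called. The genes nearest the minimum mean of 1 RPKM were A930039A15Rik, left out at a mean of 0.9993, and Gm15379, kept at 1.0003. A list member passes that minimum through any of the 3 libraries, so measured members are not all members of a list, and a gene low in JQ1+ can have passed through flavopiridol alone. Counts summed to 59786847, 51247080 and 50184508 in DMSO, JQ1+ and flavopiridol, which is 2.84, 2.72 and 2.92 times the total behind the RPKM, computed from exon lengths in GENCODE M21. Counts were therefore divided by 2.83 before the exact conditional binomial 95% interval of each fold was computed; it covers counting error only, and PCR copies are not independent molecules. Plain folds are ratios of RPKM, without the pseudocount. The script was tested on simulated data. Python 3.11.15, pandas 2.3.3, scipy 1.17.1, matplotlib 3.10.9, R 4.3.3 and edgeR 4.0.16 (TMM factors only) were used.

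Named genes were the 15 furthest on each side averaging 5 RPKM or more (leaving out histones, small RNAs, pseudogenes, variable genes and unnamed models), up to 4 members per list with the largest difference, the 6 furthest variable genes on each side, and a fixed set of drug target and B cell genes. A few genes that it takes in are not reported here, and genes named outside it are marked in the text. The gene set, the lists and the alternatives were chosen with earlier results of these data known. Of the list symbols 13 were not matched. Promoters came from RefSeq (GRCm38.p6) by symbol. The alternatives were another pseudocount, another minimum, rescaled libraries, CPM, protein-coding genes only and a call that also needs the counting interval.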

Additional observations from a re-analysis of the deposited data

How the results depend on the processing

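No paired analysis was possible because each group is 1 library, and for the same reason no replicate could be left out. With a pseudocount of 5 the counts were 110 higher and 329 lower, and with a minimum mean of 5 RPKM 172 and 566. Rescaling by the median of ratios gave 471 higher, 633 lower and an all-gene median of -0.001, and TMM factors gave 501, 608 and 0.021; both move the centre to the typical gene by construction. CPM gave 190 higher, 577 lower and a median of -0.10. With no minimum the median was 0.0, and on counts outside immunoglobulin genes -0.084, an alternative chosen after seeing the data, as was the sum of all deposited counts. Protein-coding genes alone gave 84 higher, and the call that also needs the counting interval gave 186 higher. Except where the construction says so, the cause was not tested. Of 105 named genes past 2-fold, 80 remained past it under the median of ratios, 76 with a pseudocount of 5 and 105 with a pseudocount of 0.1. Of 350 list medians recomputed, 17 moved beyond the tolerance and none reversed; of 1477 values of named genes 576 moved and none reversed among those called.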
